A study of Mus musculus with 12 samples.

Results

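Expression of 10 ferritin and iron handling genes was examined in CT-26 tumors of mice that swam and mice that did not. The genes are Fth1, Ftl1, the Ftl1 copies Ftl1-ps1 and Ftl1-ps2, Tfrc, Slc11a2, Slc40a1, Ncoa4, Ireb2 and Aco1. They were found by symbol among 30630 genes listed for every tumor, and all 10 were present. The genes were chosen by their part in iron handling while FPKM values of these same tumors in both groups were already known, so their values by group are given as a description, with no p for a single member. All 10 were among the 19018 genes that reached 0.1 FPKM in 6 or more tumors.

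CT-26 is a mouse colon carcinoma cell line. The cells were injected in Matrigel under the skin of the right flank of male BALB/c mice bought at 4 to 6 weeks of age. Both groups received the same cells, and the paper reports smaller and lighter tumors in the swimming group. Tumor size therefore cannot be told apart from group here. The control group did not swim, while mice of the swimming group had 2 sessions daily, 6 days per week, each lasting 30 min at most, during 3 weeks. RNA without ribosomal RNA was sequenced from 6 tumors of each group, out of 10 mice per group, and each tumor came from a different mouse. Values were deposited as FPKM, which are reads divided by the length of a gene in kilobases and by the total of the tumor (in units of 1000000 reads). The values behaved as whole reads divided by the length of all exons of a gene, since 96.6% to 96.8% of the values checked per tumor became whole within 0.05 of a read. The totals recovered in this way ranged from 49.5 units in control 2 to 71.2 units in control 1, and those of the swimming tumors lay within this range. Of the colon epithelium markers, Epcam, Cdx2 and Vil1 averaged below 0.1 FPKM, while Krt20 ranged from 99.8 to 194 FPKM. In whole tumors, fewer cells of a type and less RNA per cell cannot be told apart.

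Cells store iron in ferritin, a hollow shell built of a heavy chain (Fth1), which oxidizes iron, and a light chain (Ftl1), which helps the mineral form. Iron enters on transferrin through the transferrin receptor (Tfrc), leaves the endosome through DMT1 (Slc11a2) and leaves the cell through ferroportin (Slc40a1). NCOA4 carries ferritin to the lysosome, where its iron is set free. When iron is scarce, the iron regulatory proteins IRP1 (Aco1) and IRP2 (Ireb2) bind a hairpin in mRNA, the iron-responsive element. Binding near the start of a message blocks its translation, as in the ferritins and ferroportin, and binding near the end protects the message of Tfrc from decay. Control of translation is not measured by mRNA levels.

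The hairpins are shown because several members share them and FPKM values do not show them. The search, on the strand of the mRNA, was for a C, 5 stem bases, the 6-base loop CAGTGN and 5 bases able to pair with the stem (A with T, G with C or T). One or more such matches were found in a protein-coding transcript of 294 of 21901 protein-coding genes in GENCODE M21, or 1.34%. Among the members, the RefSeq-matched transcripts of Fth1, Ftl1 and Slc40a1 held 1 match each in the 5′ UTR, and that of Tfrc held 4 in the 3′ UTR. The transcript of Ftl1-ps1 also held 1. No match was found with these letters for Slc11a2, Ncoa4, Ireb2, Aco1 or Ftl1-ps2. A hairpin that departs from this pattern, or lies in a transcript not searched, would be missed. The lack of a match therefore does not mean that a gene has no iron-responsive element. Sequences are from GENCODE M21 transcripts on GRCm38, with the loop in capitals.
Fth1 (chr19:9982732-9982761, plus strand): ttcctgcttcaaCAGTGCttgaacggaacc
Ftl1 (chr7:45459778-45459807, minus strand): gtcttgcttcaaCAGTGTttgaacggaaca
Ftl1-ps1 (chr13:74406428-74406457, plus strand): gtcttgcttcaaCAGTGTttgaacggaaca
Slc40a1 (chr1:45925464-45925493, minus strand): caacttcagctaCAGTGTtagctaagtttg
Tfrc, element a (chr16:32631219-32631248, plus strand): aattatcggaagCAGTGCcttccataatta
Tfrc, element b (chr16:32631598-32631627, plus strand): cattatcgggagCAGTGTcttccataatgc
Tfrc, element c (chr16:32631663-32631692, plus strand): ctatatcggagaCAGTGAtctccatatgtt
Tfrc, element d (chr16:32631710-32631739, plus strand): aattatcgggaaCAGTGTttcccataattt

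The copies of the light chain differ from Ftl1 by few bases, which matters for how reads are placed. Ftl1-ps2 lies on chromosome 10 (130592157 to 130592705, minus strand) and is annotated as a processed pseudogene of 549 bases. It aligned without gaps to bases 254 to 802 of the Ftl1 transcript, which holds the coding sequence at 254 to 805, and 97.8% of the bases were identical, with 12 substitutions. Ftl1-ps1 (chromosome 13, 74399694 to 74407346, plus strand) is annotated as protein-coding and differed from Ftl1 at 4 of 910 aligned bases. A stretch of 60 coding bases was picked for the most differences between Ftl1 and Ftl1-ps2, so it is not typical of the copy. In it Ftl1-ps1 matched Ftl1, and Ftl1-ps2 carried the substitutions T460G, G471T and C479T. Positions are counted from base 1 of the Ftl1 transcript, with the base of Ftl1 first. The stretch is shown with these positions in capitals.
Ftl1 (chr7:45459107-45459166, minus strand): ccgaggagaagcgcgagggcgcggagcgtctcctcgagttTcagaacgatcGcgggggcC
Ftl1-ps1 (chr13:74406770-74406829, plus strand): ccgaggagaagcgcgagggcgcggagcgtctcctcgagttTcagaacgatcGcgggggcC
Ftl1-ps2 (chr10:130592480-130592539, minus strand): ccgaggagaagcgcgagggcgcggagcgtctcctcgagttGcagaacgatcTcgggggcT
Of the 500 runs of 50 bases in Ftl1-ps2, 221 (44.2%) occurred in no other annotated gene, and 125 (25%) occurred in Ftl1. For Ftl1-ps1, 33.8% of its runs of 50 bases were found in no other gene. How reads that fit several copies were placed is not given in the sources used here.

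Among the 10 genes, Ftl1-ps2 alone had values that did not overlap between the groups, and in 9 of 10 the difference in mean stayed below both SDs. The reads on Ftl1-ps2 were 9, 6, 10, 11, 7 and 13 in control 1 to 6 and 2, 2, 2, 3, 4 and 3 in swimming 1 to 6. Every control tumor was above every swimming tumor. The control total was 56 reads, or 0.146 per 1000000 reads (95% exact Poisson interval 0.110 to 0.189). The swimming total was 16 reads, or 0.0400 per 1000000 reads (0.0229 to 0.0650). These intervals pool the 6 tumors of a group and cover counting error only. They leave out the spread among tumors and are not a test between the groups. As FPKM, Ftl1-ps2 was 0.264 ± 0.0619 in control tumors and 0.0733 ± 0.0230 in swimming tumors (SD, n = 6 each), and the control mean was 3.60 times the swimming mean. On log2(FPKM + 1) the difference of swimming from control was -0.23 (standard error 0.04), a scale that compresses a level this low, and with a pseudocount of 0.01 it was -1.73. Ftl1-ps2 reached the 0.1 FPKM filter in 6 of 6 control tumors and 1 of 6 swimming tumors, so it entered the comparison through the control group and its difference is given as a description only. Without a filter the difference is -0.23 by construction, since the filter does not enter the log2 difference of a gene. Values did not overlap between the groups in 28 of the 19018 genes (0.147%), and in 13 of them (0.0684%) the swimming group was lower.

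Its parent Ftl1 carried far more reads and overlapped between the groups. Ftl1 (chromosome 7, 45457944 to 45459884, minus strand) had 75305 to 143859 reads per tumor. In the control group its lowest, median and highest values were 986, 1185 and 1353 FPKM, and in the swimming group 1035, 1200 and 1612 FPKM. The mean was 1192 ± 148 FPKM in control tumors and 1249 ± 204 FPKM in swimming tumors (SD, n = 6 each), and the log2 difference was 0.06 (standard error 0.11). Set against its parent, Ftl1-ps2 had 92.2 ± 26.4 reads per 1000000 Ftl1 reads in control tumors and 25.2 ± 10.5 in swimming tumors (SD, n = 6 each). The reads on Ftl1-ps2 were few beside those on Ftl1, and whether they came from the pseudogene or from Ftl1 messages was not tested.

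**Figure D1:**
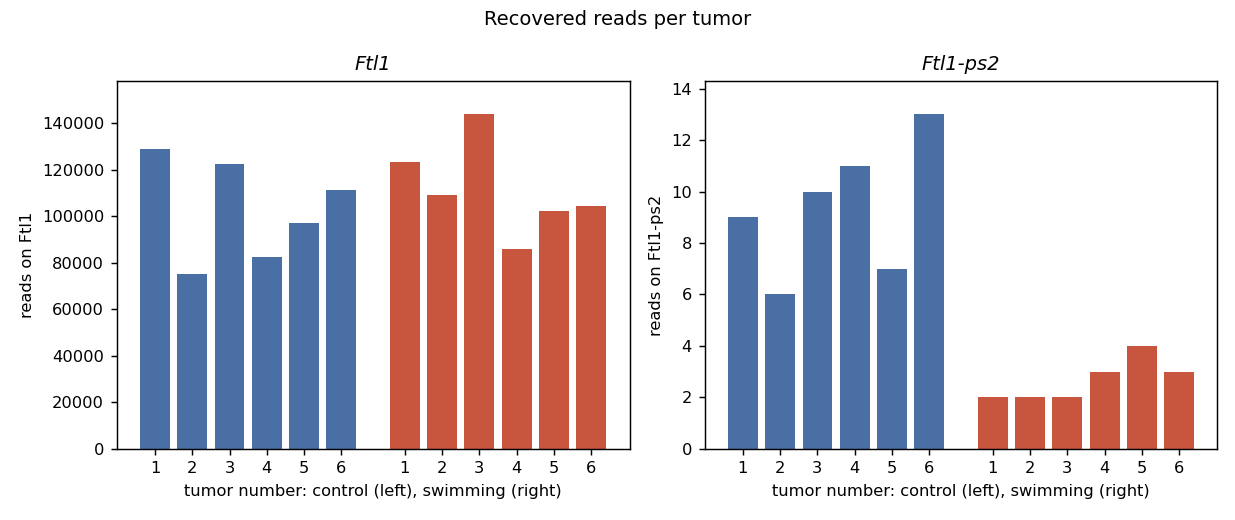
Bars give recovered reads per tumor on Ftl1 (left) and on its pseudogene Ftl1-ps2 (right), with control tumors in blue and swimming tumors in red. Ftl1 reads overlap between the groups, while Ftl1-ps2 has 6 to 13 reads in control tumors and 2 to 4 in swimming tumors.

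Ftl1-ps1 ranged more widely among tumors than its parent. Its lowest, median and highest values were 10.4, 12.5 and 24.6 FPKM in control tumors and 8.52, 10.7 and 23.3 FPKM in swimming tumors. Control 4 (20.4 FPKM), control 5 (24.6 FPKM) and swimming 4 (23.3 FPKM) were high, and the other tumors were at 14.1 FPKM or below. The means were 15.3 ± 5.83 and 12.7 ± 5.72 FPKM (SD, n = 6 each), with a log2 difference of -0.27 (standard error 0.26). The size of this difference varied with the high tumors and was -0.13 without control 5, -0.18 without control 4 and -0.45 without swimming 4. Together both copies made up 0.647% to 2.23% of the summed light-chain FPKM, and with the 3 genes summed the log2 difference remained 0.06. An annotated miRNA of 109 bases, Gm22133, lies in an exon of Ftl1 on the same strand and was listed at 1848 to 3097 FPKM, so reads of Ftl1 and Gm22133 cannot be told apart.

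Fth1, the heavy chain, was the member with the highest level. Fth1 (chromosome 19, 9980598 to 9985098, plus strand) had 1273, 1761 and 2181 FPKM as its lowest, median and highest values in the control group, and 1479, 1711 and 2006 FPKM in swimming tumors. The values overlapped throughout, with means of 1736 ± 292 and 1714 ± 207 FPKM (SD, n = 6 each) and a log2 difference of -0.01 (standard error 0.12). By mean FPKM, Fth1 was at rank 26 and Ftl1 at rank 37 of the 19018 genes. Fth1 and Ftl1 together held 0.568% to 0.924% of the FPKM sum of a tumor.

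The ratio of heavy to light chain ranged from 1.24 to 1.61 among the tumors. Fth1 FPKM divided by Ftl1 FPKM was 1.45 ± 0.138 in control tumors and 1.38 ± 0.0823 in swimming tumors (SD, n = 6 each), and it was above 1 in 12 of 12 tumors. The size of the ratio depended on the length used. The exons of all Fth1 transcripts span 3469 bases while its RefSeq-matched mRNA has 929, and for Ftl1 the lengths are 1340 and 968. With reads per base of the mRNA the ratio was 3.92 ± 0.373 and 3.72 ± 0.222 (SD, n = 6 each). This length was chosen after seeing the data.

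Fth1 and Ftl1 varied together across the tumors. The Pearson r of their log2(FPKM + 1) values was 0.836 (permutation p = 0.00093, Benjamini-Hochberg adjusted over 8 relations 0.00744) and Spearman's rho was 0.860 (permutation, adjusted p = 0.00464), over 12 tumors. Without control 4 and swimming 3, the tumors farthest from the median of Ftl1, r was 0.790. Within the groups r was 0.846 (control) and 0.934 (swimming), n = 6 each. The values of a tumor share its library and its scaling total. The members were chosen with values of these tumors known, and the permutation p is against no relation at all. Other genes had a higher r, such as Grina with Fth1 (0.908) and Gm5884 with Ftl1 (0.912).

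**Figure D2:**
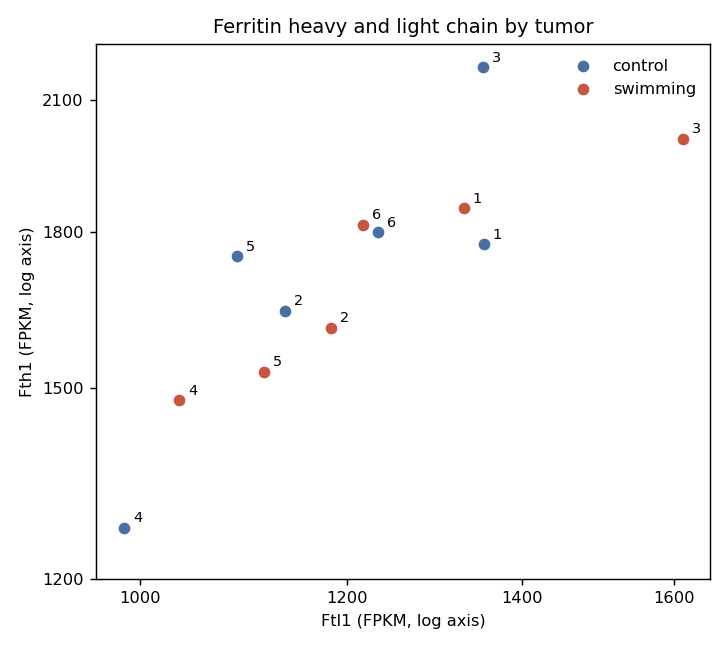
Each point is a tumor, with Ftl1 (horizontal) and Fth1 (vertical) in FPKM on log axes, control in blue and swimming in red, and the tumor number beside it. Control 4 is lowest on both axes, swimming 3 is highest for Ftl1 and control 3 is highest for Fth1.

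For iron uptake, Tfrc and Slc11a2 overlapped between the groups. Tfrc (chromosome 16, 32608920 to 32632794, plus strand) had 7.53, 9.95 and 13.7 FPKM as its lowest, median and highest values in control tumors and 9.41, 9.91 and 11.3 FPKM in swimming tumors. The swimming values lay inside the range of the control values. The means were 9.83 ± 2.26 and 10.1 ± 0.761 FPKM (SD, n = 6 each), with a log2 difference of 0.06 (standard error 0.12), which was -0.01 without control 1. Slc11a2 (chromosome 15, 100387898 to 100425072, minus strand) ranged from 7.03 to 8.95 FPKM in the control group (median 8.05) and from 6.69 to 8.95 FPKM in the swimming group (median 7.63). Its log2 difference was -0.05 (standard error 0.08).

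Slc40a1, the exporter, was the least expressed of the members that are not copies. Slc40a1 (chromosome 1, 45908068 to 45926523, minus strand) had 0.0607, 0.500 and 0.696 FPKM as its lowest, median and highest values in control tumors and 0.176, 0.330 and 0.597 FPKM in swimming tumors. Control 3 stood lowest with 37 reads, against 98 to 358 reads in the other tumors. The means were 0.425 ± 0.229 and 0.364 ± 0.173 FPKM (SD, n = 6 each), and the log2 difference was -0.06 (standard error 0.12). On recovered reads, the difference was 0.01, so its sign was not stable. Ferroportin is known from macrophages that recycle iron, and macrophage markers were abundant. For 10 macrophage markers, such as Adgre1 and C1qa, the summed level was 766 to 1094 FPKM in control tumors. In swimming tumors it was 892 to 1252 FPKM. After adjustment, 0 of 10 markers were below 0.05 by limma, as were 0 of all 19018 genes. At an unadjusted p below 0.05 by limma there was 1 of 10, against 5.56% of all genes.

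Ncoa4, Ireb2 and Aco1 also overlapped between the groups, and Ncoa4 split the tumors in another way. Ncoa4 (chromosome 14, 32159865 to 32179855, plus strand) had 2.92, 3.74 and 8.04 FPKM as its lowest, median and highest values in control tumors and 2.87, 3.10 and 7.87 FPKM in swimming tumors. Control 3 (6.89 FPKM), control 6 (8.04 FPKM) and swimming 1 (7.87 FPKM) were high, and the other tumors were between 2.87 and 3.89 FPKM. The log2 difference was -0.26 (standard error 0.25), and without 1 of the high tumors it was -0.45 (swimming 1), -0.16 (control 3) or -0.12 (control 6). No listed gene overlaps its exons, 17.9% of its runs of 50 bases also occur in Gm6768, and the cause of the high values was not tested.

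The sensors had the lowest coefficients of variation (SD over mean) of the members. Aco1 (chromosome 4, 40143081 to 40198338, plus strand) ranged from 14.4 to 17.5 FPKM in the control group (median 16.2) and from 15.0 to 18.03 FPKM in the swimming group (median 16.5), a coefficient of variation of 6.26% over the 12 tumors. Ireb2 (chromosome 9, 54863789 to 54912530, plus strand) ranged from 7.01 to 9.10 FPKM in the control group (median 8.35) and from 7.78 to 9.58 FPKM in the swimming group (median 8.47), with a coefficient of variation of 8.30%. The log2 differences were 0.01 (standard error 0.06) for Aco1 and 0.06 (standard error 0.07) for Ireb2. For comparison, the coefficient of variation was 10.1% for Slc11a2, 14.0% for Fth1, 14.1% for Ftl1 and 16.2% for Tfrc. It was 40.6% for Ftl1-ps1, 46.4% for Ncoa4, 49.7% for Slc40a1 and 64.7% for Ftl1-ps2.

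**Figure D3:**
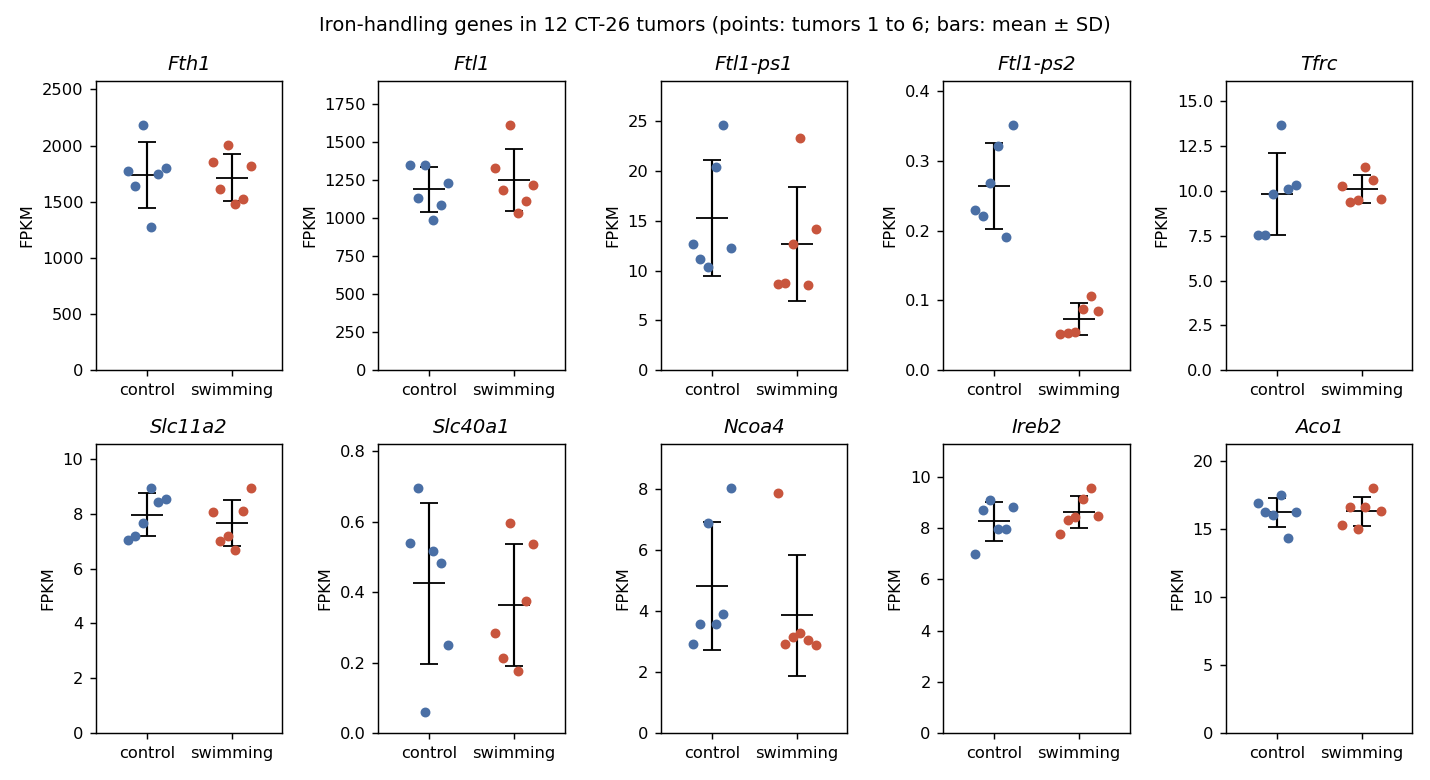
Each panel shows 1 gene in FPKM from 0, with a point for each of 6 control tumors (blue) and 6 swimming tumors (red) and the mean ± SD in black. Ftl1-ps2 alone separates the groups, and Ncoa4 shows 3 tumors well above the other 9.

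Counted over the members, 4 were higher and 6 lower in swimming tumors, with a median log2 difference of -0.03, against 0.00387 over all genes tested. Leaving out each tumor in turn turned the sign for Ftl1 (-0.01 to 0.11), Fth1 (-0.10 to 0.06), Tfrc (-0.01 to 0.15) and Aco1 (-0.02 to 0.03). After Benjamini-Hochberg adjustment, 0 of the 19018 genes were below 0.05 by limma (1058 unadjusted), and 0 with limma's voom on recovered reads (1046 unadjusted).

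Ordered by mean FPKM, the levels were Fth1 (1725), Ftl1 (1220), Aco1 (16.3), Ftl1-ps1 (14.0), Tfrc (9.97), Ireb2 (8.45), Slc11a2 (7.82), Ncoa4 (4.33), Slc40a1 (0.394) and Ftl1-ps2 (0.169). This order holds for the length of all exons, and the RefSeq-matched mRNAs are shorter by unequal amounts. The lengths are 9365 and 3343 bases for Ncoa4, 6354 and 3025 for Slc11a2, 9479 and 5770 for Ireb2, and 6185 and 4890 for Tfrc. The order per base of mRNA may differ and was not examined. The ranges of neighbours were apart between Ftl1 and Aco1 and between Ncoa4 and Slc40a1. All other neighbours overlapped, and the order held in 12 of 12 tumors for Fth1 over Ftl1 and for Slc11a2 over Ncoa4, but in 7 of 12 for Ireb2 over Slc11a2 and 9 of 12 for Aco1 over Ftl1-ps1 and for Ftl1-ps1 over Tfrc.

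Of the other 7 relations across tumors, none passed an adjusted permutation p below 0.05. Slc40a1 and the macrophage score, a mean over the 10 markers of log2(FPKM + 1) centred per gene, had r = 0.576 (permutation p = 0.0479, adjusted 0.169), with rho 0.559 (adjusted 0.254). Within the groups r was 0.910 (control) and 0.108 (swimming), n = 6 each, and without control 3 and swimming 5 it was 0.551 over all tumors. Slc40a1 and Hmox1, heme oxygenase that frees iron from heme, had r = 0.551 (permutation, adjusted p = 0.169), with 0.176 in control tumors and 0.932 in swimming tumors. Whether these values differ between groups was not tested.

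Tfrc, which dividing cells are known to raise, was set against proliferation markers. With a score of 10 proliferation genes r was -0.05 over all tumors (permutation, adjusted p = 0.882), -0.79 in control tumors and 0.660 in swimming tumors, and -0.71 without swimming 4 and swimming 5, and the difference between the groups was not tested. Tfrc with Fth1 had r = -0.49 (permutation, adjusted p = 0.169). The copies with Ftl1 had r = -0.49 for Ftl1-ps1 (permutation, adjusted p = 0.169) and -0.25 for Ftl1-ps2 (adjusted p = 0.507), which was 0.271 without control 4 and swimming 3. Ftl1 with the macrophage score had r = -0.40 (permutation, adjusted p = 0.258).

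**Figure D4:**
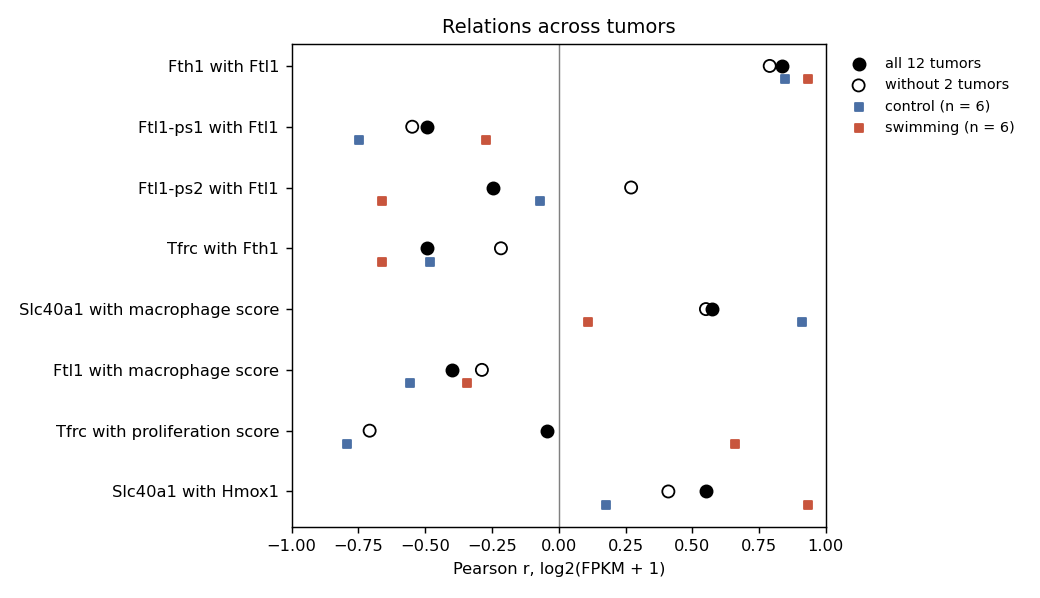
Pearson r for 8 relations, with all 12 tumors (filled circle), without the 2 tumors farthest from the median of the latter measure (open circle), and within control (blue square) and swimming (red square) tumors. Fth1 with Ftl1 is high in every version, and Tfrc with the proliferation score is at -0.79 in control tumors and 0.660 in swimming tumors.

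The genes most like a member were named by Pearson r of log2(FPKM + 1) over the 12 tumors among 12789 genes, as a description. For Fth1 they were Grina (0.908), Fchsd1 (0.887) and Gm20033 (0.869). For Ftl1 they were Gm5884, a processed pseudogene (0.912), the overlapping Gm22133 (0.884) and Sdc4 (0.880). For Tfrc, Ccar1 was at 0.956, Gm17067 at 0.845 and Gm21769 at 0.834. Slc40a1 was most like Ifitm6 (0.853), Smagp (0.827) and Cd300ld (0.818). Ftl1-ps2 was most like Gprc5a (0.867), Comtd1 (0.853) and Foxo1 (0.817), where r includes the difference between the groups.

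Around the members, 85 other genes of iron and heme handling were set up by role, of which 82 were listed and 76 reached the filter. In the swimming group 2 were higher and 2 lower at an unadjusted p below 0.05 by limma, together 5.26%, against 5.56% of all genes (3.11% higher and 2.46% lower). After adjustment 0 of 76 passed, with a lowest adjusted p of 0.889 by limma. Over the list 32 genes were higher and 44 lower, with a median log2 difference of -0.01. Hamp, Hamp2 and Ftmt (hepcidin genes and mitochondrial ferritin) were not analysed here.

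By role, 0 of 10 genes of iron uptake and the endosome were past the unadjusted threshold. Steap1, of the STEAP metalloreductase family, was 60.2 ± 9.27 FPKM in control tumors and 50.6 ± 7.68 FPKM in swimming tumors (SD, n = 6 each; log2 difference -0.24), and Trf, transferrin, had a log2 difference of -0.14, which was 0.00460 without swimming 3, -0.04 without control 4, -0.07 without control 1, -0.24 without swimming 2 and -0.33 without control 3. Among export and systemic control genes 0 of 4 passed, with Cp, the ferroxidase ceruloplasmin, at 0.23 and Hfe at 0.16 on the log2 scale. The difference of Cp was -0.01 without control 4, 0.14 without swimming 1 and 0.36 without control 3, and that of Hfe was 0.08 without swimming 5. Of the intracellular sensing and delivery genes 0 of 6 passed, and the iron chaperones Pcbp1 and Pcbp2 differed by 0.02 and -6.07e-06. In heme synthesis 0 of 9 passed, with Alad at -0.08 and Cpox at -0.12. Of 5 other mRNAs with an iron-responsive element 0 passed, with Hao1 at -0.21.

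The mitochondrial iron and iron-sulfur cluster genes held 3 of the 4 genes past the unadjusted threshold, out of 31 tested (9.68%, against 5.56% of all genes), and the role also holds 31 of the 76 genes. Of the 31, 10 were higher and 21 lower in the swimming group, against 51.7% higher over all genes. Hspa9, a chaperone of cluster assembly, was 350 ± 32.7 FPKM in control tumors and 313 ± 23.4 FPKM in swimming tumors (SD, n = 6 each; log2 difference -0.16, adjusted p = 0.889 by limma), and Ciao3 had a log2 difference of -0.13. Nubp1, a scaffold for cytosolic clusters, was 12.8 ± 0.786 and 14.5 ± 1.97 FPKM (log2 difference 0.17), with swimming 5 at 18.3 FPKM, without which the difference was 0.10. Ciao2b, of the same pathway, differed by 0.01. In heme breakdown and transport 1 of 11 passed. This was Flvcr1, a heme exporter, with 6.55 ± 1.71 FPKM in control tumors and 8.25 ± 0.548 FPKM in swimming tumors (SD, n = 6 each; log2 difference 0.32, adjusted p = 0.889 by limma), and all 6 swimming tumors were above the control median. Hmox1 differed by 0.01 and Slc48a1 by -0.15. Of 21 alternatives, the unadjusted threshold was still passed by Hspa9 in 12, Nubp1 in 11, Ciao3 in 13 and Flvcr1 in 16. Leaving out 1 tumor moved the count of 4 to between 0 (without control 5) and 6 (without control 3).

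**Figure D5:**
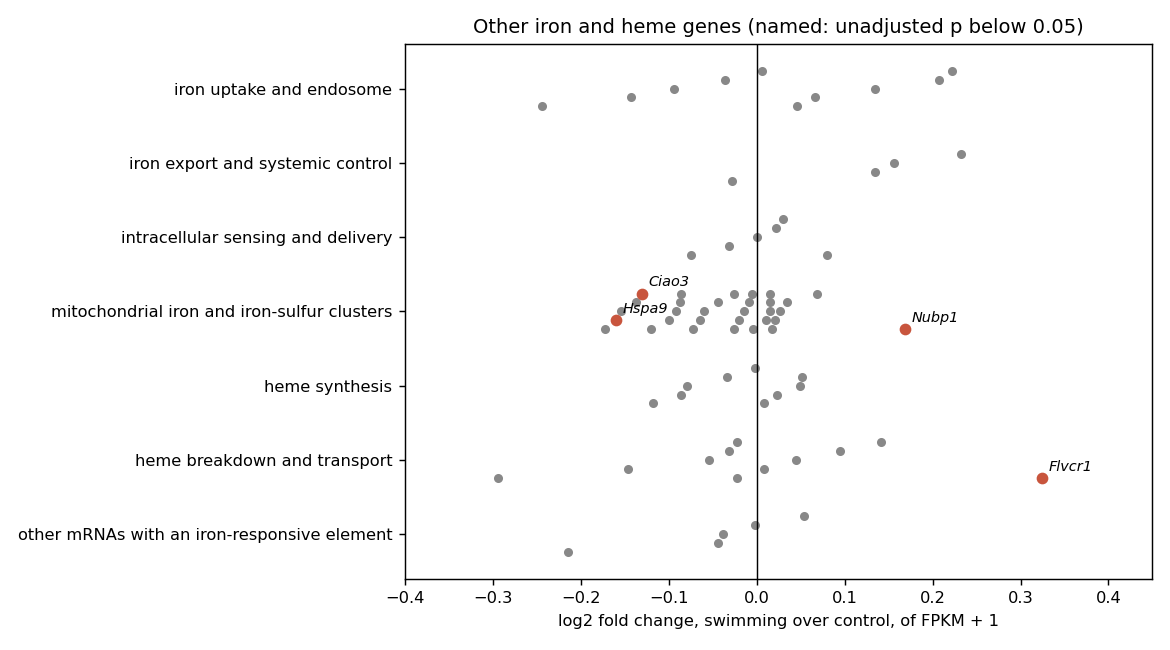
Each point is 1 of 76 other iron and heme genes, placed by role and by its log2 difference (swimming over control, FPKM + 1). The 4 named genes in red had an unadjusted p below 0.05 by limma, and none passed after adjustment.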

How the data were processed

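Libraries were depleted of ribosomal RNA, and the authors deposited FPKM per gene and tumor. HISAT2 2.0.5 and StringTie 1.3.3 are named in the submitters' processing notes. The genome given in the methods is hg38, and the processing notes list GRCm38 as well as hg38. Identifiers in the files are of mouse genes, and coordinates were matched to GENCODE M21 (GRCm38) by identifier. Read numbers were recovered from FPKM, the length of all exons and a scaling total per tumor. Strand was not stated for the library.

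The members and gene lists were chosen with earlier results of these data known. Groups were compared on log2(FPKM + 1) by limma 3.58.1 (R 4.3.3; lmFit, eBayes with trend, Benjamini-Hochberg), for genes that reached 0.1 FPKM in 6 or more of the 12 tumors, and no tumor was left out. Relations used 100000 two-sided permutations (scipy 1.17.1). Named genes are the members, genes of the wider list at an unadjusted p below 0.05, the 2 most expressed genes of each role, and the 3 genes most like 5 of the members, with the genes of the relations. Not every gene under this rule is reported here. Alternatives were pseudocounts of 0.1 and 0.01, no filter, a filter of 1 FPKM, quantile normalization, scaling by an unweighted trimmed mean, eBayes without trend, a replicate block, leaving out each tumor, and summed light-chain copies. Limma's voom on recovered reads and the mRNA length were added after seeing the data. Copies were aligned with Biopython 1.88.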

Additional observations from a re-analysis of the deposited data

Results flagged for a closer look

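Members, named genes and some, but not all, of the marker scores gave 60 groups of 6 values. In 5 of these groups a single tumor stood apart from the other 5 by Dixon's 95% criterion, where chance gives about 3. Ncoa4 was 7.87 FPKM in swimming 1, and 2.87 to 3.26 FPKM in the other swimming tumors. Nubp1 was 18.3 FPKM in swimming 5, against 13.0 to 14.9 FPKM in the others. Ciao2b was 45.3 FPKM in swimming 6, against 37.2 to 40.2 FPKM. Hmox1 was 53.9 FPKM in control 1, against 30.7 to 35.8 FPKM in the other control tumors. The macrophage score, in log2 units centred over all tumors, was 0.296 in swimming 5, against -0.07 to 0.02 in the other swimming tumors. The causes were not tested.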

How the results depend on the processing

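No log2 difference of a named gene that was past the unadjusted threshold changed sign under an alternative. The filters, eBayes without trend and the replicate block could not change a sign, since they leave the log2 difference of a gene as it is. These genes were also picked for differences that were large beside their standard errors. With the replicate number as a replicate block, 2 genes of the wider iron list had an unadjusted p below 0.05 by limma in place of 4 (Flvcr1, which was among the 4, and Hao1, which was not, while Hspa9, Nubp1 and Ciao3 no longer passed), and 892 of all genes in place of 1058. The numbers belong to different mice, and deviations of same-numbered tumors correlated at -0.12 on average (-0.32 to 0.00588), so they do not pair the tumors. Without 1 tumor, the wider list had 0 to 6 such genes: 0 without control 5, 1 without control 4, control 6, swimming 4 or swimming 5, 2 without swimming 2 and 6 without control 3. Over all genes, 833 to 1443 were past an unadjusted p of 0.05 without 1 tumor, and 0 to 3 past an adjusted p of 0.05 by limma. These were Atp6v0c, Phospho2 and Txndc5 without control 4 and, 2 in number, Klf9 and Gm13419 without swimming 1, named after their values were seen. Without a filter 1445 genes had an unadjusted p below 0.05, and with a filter of 1 FPKM 729, where Ftl1-ps2 and Slc40a1 drop out. The log2 difference of Ftl1-ps2 was -1.06 and -1.73 with pseudocounts of 0.1 and 0.01 and -1.70 on recovered reads, a larger size by construction. The Fth1 to Ftl1 ratio, a mean of 1.42 per exon length, was 3.82 per mRNA length. Fth1 with Ftl1 was the 1 relation past an adjusted permutation p of 0.05 on raw FPKM and after quantile normalization as well. With 2 to 13 reads per tumor on Ftl1-ps2, depth limits its precision.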

Other observations

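Other ferritin-like genes were also listed. Ftl2-ps, a further light-chain copy that holds 19.1% of the 50-base runs of Ftl1, ranged from 13.1 to 20.8 FPKM, with 16.6 ± 3.04 FPKM in control tumors and 16.6 ± 2.88 FPKM in swimming tumors (SD, n = 6 each). Fth-ps2 ranged from 0 to 0.815 FPKM, Fth-ps3 was listed at 0 in 10 tumors, and Fthl17e was listed at 0 in 11 tumors. Gm10252, on the strand opposite Ftl1, had 1.66 to 4.08 FPKM, and Mir692-3, inside Ftl1-ps1, had 1 read in every tumor.

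Red blood cell markers varied more than the ferritins. Their summed level was 248 to 601 FPKM in control tumors and 152 to 1240 FPKM in swimming tumors, mostly hemoglobin genes. Their part in the values of the iron genes was not tested.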
